A study of Mus musculus with 2 samples.

Results

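Ureters of E14.5 mouse embryos were compared for 9 genes of the chemokine system: the ligands Cxcl12, Cxcl14, Ccl11, Ccl2, Ccl7, Cxcl1 and Cxcl10, the signalling receptor Cxcr4 and the atypical receptor Ackr3. The genes were taken by name, and every array probe whose RefSeq accession belongs to one of them was read on both arrays. This gave 10 probes of the 39396 shared by the arrays, for 9 of 32081 genes, with a pair of probes for Cxcl12 and 1 probe for each other gene. The 32081 include accessions without a gene name, which count as genes here and in all shares of genes tested. All 10 probes passed the filter on dim signals, that of Cxcl10 only through the labelled knockout channels. Where in each transcript a probe lies is not given in the files. Cxcl12 is known to have been picked for follow-up by the study from these samples, so its direction here is not independent evidence. All 9 genes were chosen with earlier results of these data known, so their shares beside all genes are not independent evidence either.

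The study had 2 two-colour arrays, each holding RNA of NMRI ureters from 1 labelled knockout and 1 control sample of the same sex. By their label, the knockout embryos were Tbx18(cre/+) and homozygous for floxed alleles of the transcription factor genes Tbx2(fl/fl) and of Tbx3(fl/fl). The Tbx18 locus drives the Cre recombinase, in progenitors of the ureteric mesenchyme. The controls were Tbx18(+/+), hence without Cre, and are labelled Tbx2(fl/?) and Tbx3(fl/?), which does not say what the other allele was. Only the labelled knockouts carried the Tbx18(cre) allele. Its effect therefore cannot be told apart from that of the labelled loss of Tbx2 and Tbx3. In the female pair (replicate 1) AlexaFluor647 marked the labelled knockout and AlexaFluor555 the control, and in the male pair (replicate 2) it was the other way round. An effect of sex and one of the dyes therefore cannot be told apart. The number of embryos behind an RNA is not stated. The p-values rest on only these 2 pairs and on a spread between pairs that is pooled over all genes. That spread may be technical.

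Each probe had 4 spots per array. Depending on array and channel, 64.3% to 71.6% of spots stood well above background, and 0 were saturated. Having only 2 arrays limits the precision throughout. Ratios are log2 values of labelled knockout over control, given as the mean ± SD over the 2 pairs, and a gene was called higher or lower at an adjusted p under 0.05 (limma, Benjamini-Hochberg over 20629 genes). Intensities are log2 values after normalization. They can be compared between samples for 1 probe, but not between probes. Where the groups of a gene are said to overlap or not, this is a description. The share of all genes without overlap was not counted. Tbx3 fell by 1.09 ± 0.10 (SD, n = 2; adjusted p = 0.000862), but Tbx2 rose by 0.86 ± 0.12 (SD, n = 2; adjusted p = 0.00236), against its label. Where these probes lie relative to the deleted parts is not known here, and the text therefore speaks of ureters labelled knockout. Tbx18 was at 0.15 ± 0.0011 (SD, n = 2; adjusted p = 0.379). The RNA came from whole ureters, so the values do not say which cells held a transcript, and more cells of a type cannot be told apart from more RNA per cell.

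Chemokines are small secreted proteins that guide migrating cells through G-protein-coupled receptors. CXCL12, made by many mesenchymal cells, signals through CXCR4, whereas ACKR3 binds the same ligand, does not couple to G proteins in the usual way and takes CXCL12 up for breakdown, which shapes its gradients. CCL2 and CCL7 attract monocytes through CCR2, CCL11 (eotaxin) attracts eosinophils through CCR3, CXCL1 attracts neutrophils through CXCR2, and CXCL10, induced by interferons, attracts T cells through CXCR3. CXCL14 is a chemokine of epithelia and fibroblasts whose receptor is debated.

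In the ureters labelled knockout, 3 of the 9 genes were higher, 0 were lower and 6 did not pass the test, where 1.87% of all genes tested were higher, 1.81% were lower and 3.68% were called in either direction. At an unadjusted p under 0.05 of limma, 7 were higher and 0 lower, where 14.1% of all genes tested passed (7.58% higher and 6.55% lower). The 3 called genes were Ackr3, with a 1.46-fold higher signal, Cxcl14, with a 1.35-fold higher signal, and Ccl11, with a 1.26-fold higher signal. The other ratios ran from -0.25 for Cxcl1 to 0.30 for Ccl7. Of the 9, 8 had a ratio above 0 in both pairs and 1, Cxcl1, had opposite signs. Cxcl10 is in the counts of 7 and 8, but it passed the filter only through the labelled knockout channels, where it was higher. With both channels required to be above background, 8 members were tested and 7 had a mean above 0. Over all genes tested, 27.6% had a ratio above 0 in both pairs. The 9 were chosen with earlier results known, so such shares describe them and are no test of them as a set. The median of the 9 was 0.21, beside -0.0021 over all genes tested. These shifts are small: no member reached a fold of 2.

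**Figure D1:**
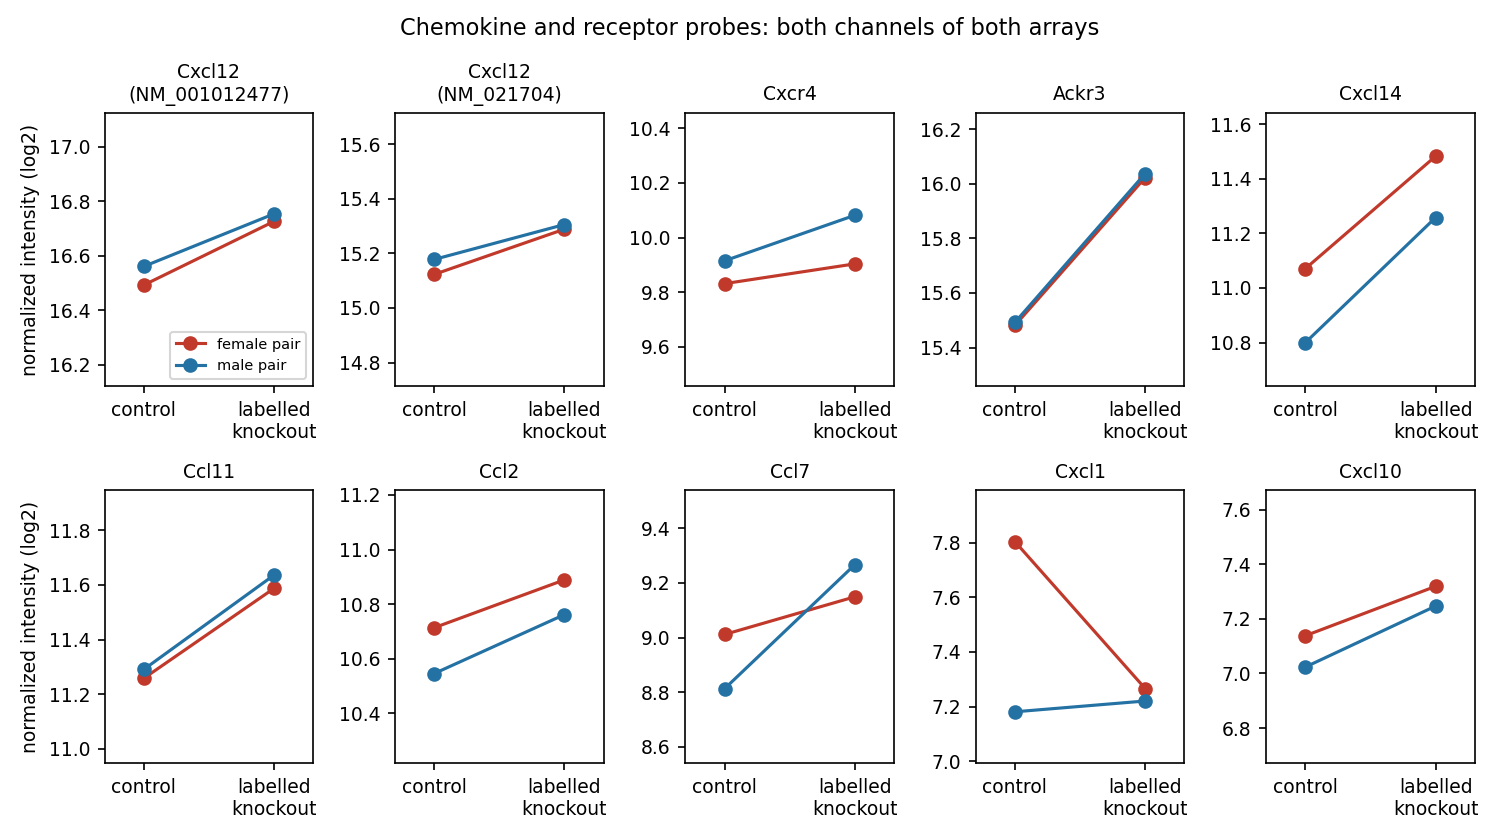
Normalized log2 intensity of each probe in the control and the labelled knockout channel, with the female pair in red and the male pair in blue and a line joining the RNAs of 1 array; every panel spans 1 log2 unit on its own range, so heights compare samples and not probes, and Cxcl12 has a panel for each probe. Both lines rise in parallel for Ackr3, Cxcl14 and Ccl11, and they part for Cxcl1, where the female control stands at 7.80.

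Promoter sequences from RefSeq (build GRCm38.p6) were on hand for 6 of the 9 genes: Ackr3, Cxcl12, Cxcr4, Cxcl14, Cxcl1 and Cxcl10. Those of 3 genes are shown in full, as the 250 bases before the annotated start in the direction of the gene: Ackr3 and Cxcl14 as called members, and Cxcl12 as the ligand that ACKR3 takes up. Capitals mark matches to 3 motifs searched on both strands. These were GGTGTG, the short element bound by T-box factors such as TBX2 and TBX3, the kappaB consensus of the NF-kappaB factors, and a pair of GAAA with any 2 bases between them, the core of the interferon response element. Over 32851 promoters of the same length they were found in 16.3%, 7.25% and 2.98%. The positions are chr1:90203730-90203979 on the plus strand for Ackr3, chr6:117168285-117168534 on the plus strand for Cxcl12, and chr13:56296552-56296801 on the minus strand for Cxcl14.
Ackr3: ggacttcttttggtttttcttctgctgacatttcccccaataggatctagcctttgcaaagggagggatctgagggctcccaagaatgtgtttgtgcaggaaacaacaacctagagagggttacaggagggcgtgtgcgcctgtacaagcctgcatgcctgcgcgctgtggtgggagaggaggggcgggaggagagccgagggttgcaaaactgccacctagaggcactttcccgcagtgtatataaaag
Cxcl12: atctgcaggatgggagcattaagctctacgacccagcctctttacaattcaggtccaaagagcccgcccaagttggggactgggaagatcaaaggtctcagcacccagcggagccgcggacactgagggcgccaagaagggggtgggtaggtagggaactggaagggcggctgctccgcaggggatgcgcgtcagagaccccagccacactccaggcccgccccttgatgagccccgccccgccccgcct
Cxcl14: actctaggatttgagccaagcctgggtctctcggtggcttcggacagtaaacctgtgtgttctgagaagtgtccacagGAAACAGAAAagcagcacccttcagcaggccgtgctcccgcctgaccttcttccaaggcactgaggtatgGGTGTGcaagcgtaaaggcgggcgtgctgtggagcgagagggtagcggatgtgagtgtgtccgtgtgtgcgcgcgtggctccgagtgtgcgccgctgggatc
The Ackr3 and Cxcl12 windows held no match to any of the motifs, nor did that of Cxcr4. The Cxcl14 window held 1 T-box element, 102 to 97 bases before the start, and 1 interferon core, 172 to 163 bases before it. A match is a description of letters, not of a bound site, and no match speaks only of this window. The Cxcl12 window had 64.4% G and C and 14 CpG pairs, the Cxcl14 window 59.6% and 16, and the Ackr3 window 54.0% and 7, beside a median of 52.4% G and C over all promoters.

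Among the receptors and the ligand of the CXCL12 system, the scavenging receptor was the called gene. Ackr3 had an intensity of 16.02 in the female and 16.04 in the male ureters labelled knockout, and of 15.48 and 15.49 in their controls. Both labelled knockout values were above both controls, and the sexes lay closer to each other than the groups did. The female ratio was 0.54 and the male ratio 0.55, a mean of 0.54 ± 0.0027 (SD, n = 2; adjusted p = 0.00905), or 1.46-fold with a 95% interval of limma from 1.31 to 1.63. The 4 spots of each array ranged from 0.50 to 0.58 in the female pair and from 0.52 to 0.58 in the male pair. In the authors' deposited table its signed fold was 1.55 and 1.54.

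Cxcl12, the ligand, had a smaller ratio that did not pass the test over all genes. Its brighter probe (NM_001012477) had intensities of 16.73 and 16.75 in the female and male ureters labelled knockout and of 16.49 and 16.56 in the controls. The groups did not overlap, which with 2 values each is a description and no test. The ratios were 0.23 and 0.19, a mean of 0.21 ± 0.029 (SD, n = 2; adjusted p = 0.188), with a 95% interval from 0.055 to 0.37. The other probe (NM_021704) had intensities of 15.29 and 15.31 against 15.12 and 15.18. Its ratios were 0.17 and 0.13, a mean of 0.15 ± 0.027 (SD, n = 2; adjusted p = 0.418 when each probe was tested by itself). Both probes thus had a ratio above 0 in both pairs and in 8 of 8 spots, at 1.16-fold and 1.11-fold. In the authors' deposited table the brighter probe had a signed fold of 1.17 on both arrays. With arrays centred on their median in place of the loess curve, the female ratio was 0.56 and the male ratio -0.049, so the sign in the male pair depends on the loess step.

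Cxcr4, the signalling receptor, was at 9.90 and 10.08 in the female and male ureters labelled knockout and at 9.83 and 9.91 in the controls. The groups overlapped, since the male control lay above the female labelled knockout. The ratios were 0.072 and 0.17, a mean of 0.12 ± 0.067 (SD, n = 2; adjusted p = 0.555), with a 95% interval from -0.044 to 0.28, and 7 of 8 spots were above 0. In the authors' deposited table the female ratio had the other sign, with signed folds of -1.01 and 1.13. The difference between the ratios of Ackr3, Cxcl12 and Cxcr4 was not tested.

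By the distance between their 2 ratios, the genes most like Ackr3 were Rgs17, at 0.54 and 0.53 in the female and male pair, Rpp25, at 0.53 and 0.56, and Lsm8, at 0.54 and 0.53, and 55 of 20628 other genes lay within a distance of 0.1. Those most like Cxcl12 were Cys1, Klhl14 and L1cam, and 589 genes lay within 0.1. With 2 points per gene, such likeness is shared by many genes.

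**Figure D2:**
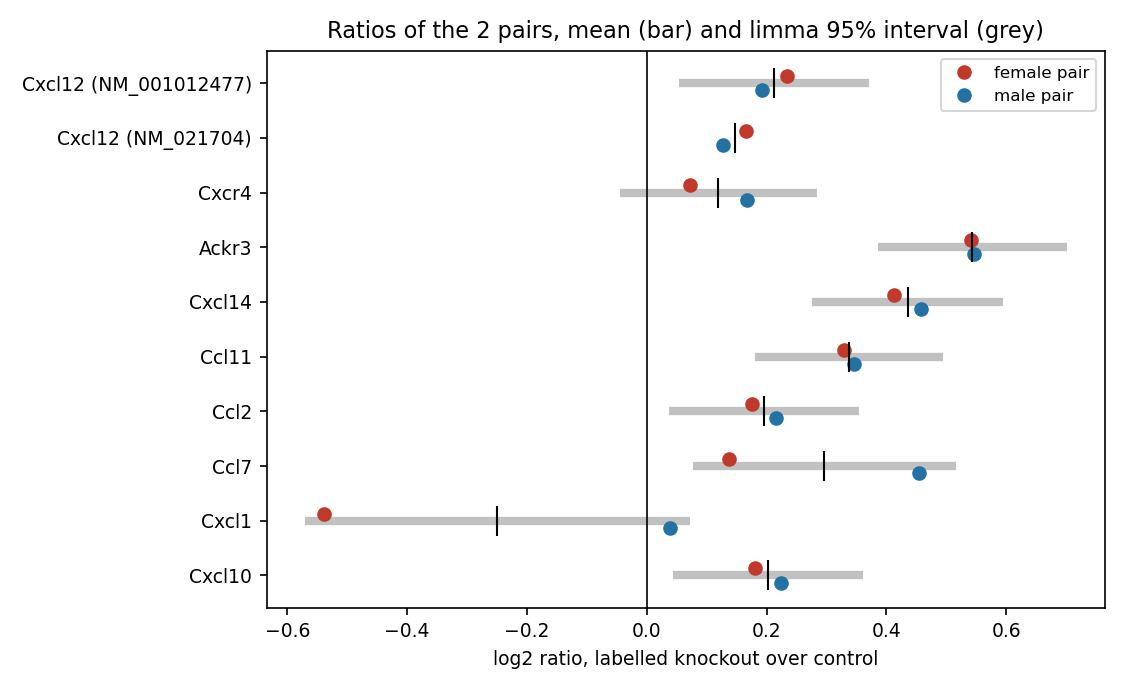
Log2 ratio of labelled knockout over control for each probe, with the female pair in red, the male pair in blue, the mean as a black bar and the 95% interval of limma in grey (drawn for the probe that stands for each gene in the test). The pairs of Ackr3 coincide near 0.54, the interval of Cxcr4 crosses 0, and Ccl7 and Cxcl1 show the widest spread between pairs.

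Cxcl14 rose. Its intensity was 11.48 and 11.26 in the female and male ureters labelled knockout and 11.07 and 10.80 in the controls. Both labelled knockout values were above both controls, and the male pair lay below the female pair in each group. The ratios were 0.41 and 0.46, a mean of 0.44 ± 0.033 (SD, n = 2; adjusted p = 0.0202), or 1.35-fold with a 95% interval from 1.21 to 1.51. All 8 spots were above 0, from 0.35 to 0.48. The signed folds in the authors' deposited table were 1.33 and 1.38, and neither that table nor median centring called the gene (adjusted p up to 0.155 over the 12 alternatives).

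Ccl11, Ccl2 and Ccl7 lie in 1 cluster of CC chemokine genes, in the order Ccl2, Ccl7, Ccl11, Ccl12 and Ccl8 in the RefSeq table. Ccl11, the eosinophil attractant, was the called gene of the 3 members, and only just under the threshold. Its intensity was 11.59 and 11.64 in the female and male ureters labelled knockout and 11.26 and 11.29 in the controls, with no overlap. The ratios were 0.33 and 0.35, a mean of 0.34 ± 0.011 (SD, n = 2; adjusted p = 0.0487), or 1.26-fold with a 95% interval from 1.13 to 1.41. Of 12 processing alternatives, 5 moved its adjusted p past 0.05, up to 0.287, while the ratio stayed between 0.34 and 0.37.

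Ccl2, a monocyte attractant, was at 10.89 and 10.76 in the female and male ureters labelled knockout and at 10.71 and 10.55 in the controls. The groups did not overlap, which is likewise no test, and the ratios of 0.18 and 0.22 were close to each other. Their mean was 0.20 ± 0.029 (SD, n = 2; adjusted p = 0.232), with a 95% interval from 0.037 to 0.35. Ccl7, a further monocyte attractant, was at 9.15 and 9.27 against 9.01 and 8.81. Here the male pair was set further apart than the female pair, with ratios of 0.45 and 0.14. The mean was 0.30 ± 0.22 (SD, n = 2; adjusted p = 0.187), with a 95% interval from 0.077 to 0.52. All 8 spots of each of these 3 probes were above 0. Of the other genes of the cluster, Ccl12 had a female ratio of -0.020 and a male ratio of 0.11 (adjusted p = 0.92), and Ccl8 was not well above background in any spot. Ccl12 was singled out after its values were seen. Ccr2, the receptor of CCL2 and CCL7, was at 0.45 and 0.14, a mean of 0.30 ± 0.22 (SD, n = 2; adjusted p = 0.182). Ccr3, the receptor of CCL11, was not well above background in enough spots to be tested.

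The inducible attractants Cxcl1 and Cxcl10 had probes near background. For Cxcl10, the male control channel had 0 of 4 spots well above background, while all 4 passed in the other 3 channels. Cxcl10 was at 7.32 and 7.25 in the female and male ureters labelled knockout and at 7.14 and 7.02 in the controls, so the male ratio is set against a channel near background. The ratios were 0.18 and 0.22, a mean of 0.20 ± 0.030 (SD, n = 2; adjusted p = 0.215). With the scanner software's processed signals the ratio was 0.41 (adjusted p = 0.0777), about the value of 0.37 from the authors' deposited table, so its size depends on the signals used.

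Cxcl1 was at 7.27 and 7.22 in the female and male ureters labelled knockout and at 7.80 and 7.18 in the controls. The female control stood above the other 3 samples, which lay within a narrow range. The female ratio was -0.54 and the male ratio 0.040, a mean of -0.25 ± 0.41 (SD, n = 2; adjusted p = 0.517), and 0 of 4 female and 2 of 4 male spots were above 0. Its neighbour Cxcl2, another neutrophil attractant, was not tested, because it was well above background in all spots of the female control channel only. Its female ratio was -0.80 and its male ratio -0.014. Their receptor gene Cxcr2 was not well above background in any spot. Cxcr3, the receptor of CXCL10, was at -0.074 ± 0.15 (SD, n = 2; adjusted p = 0.851).

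The Cxcl1 and Cxcl10 windows before the start held the kappaB consensus, and that of Cxcl10 the interferon core as well, which are shown because both genes are known targets of these pathways. The windows are chr5:90890995-90891244 on the plus strand for Cxcl1 and chr5:92348890-92349139 on the minus strand for Cxcl10. The Cxcl1 match lay 71 to 62 bases before the start, and a match on the opposite strand overlapped it by all but 1 base at 70 to 61.
Cxcl1 kappaB: tgtactccGGGAATTTCCctggcccg
Cxcl10 kappaB, distal: aggggagaGGGAAATTCCaagttcat
Cxcl10 kappaB, proximal: ggtttacaGGGGACTTCCctcgggtt
Cxcl10 interferon core: acgctttgGAAAGTGAAActtacctc
The distal kappaB match of Cxcl10 lay 159 to 150 bases before the start, the proximal one 104 to 95 with overlapping matches on both strands at 103 to 94, and the interferon core 213 to 204. Neither gene was called in these ureters.

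Response genes of the same pathways were read from lists. Of 20 NF-kappaB response genes, 15 were tested, with a median of 0.069. Unadjusted (p under 0.05 in limma), 2 were higher and 1 lower, beside 7.58% and 6.55% of all genes. After adjustment 14 did not pass and 1 was higher, beside 1.87% of all genes. Il6, Il1b, Ptgs2, Csf3 and Lif were not well above background in enough spots to be tested. The gene that rose was Vcam1, the adhesion molecule that binds leukocyte integrins, at 0.71 ± 0.098 (SD, n = 2; adjusted p = 0.0045). Its intensity was 15.15 and 15.25 in the female and male ureters labelled knockout and 14.51 and 14.47 in the controls. Of 22 interferon response genes, 18 were tested, with a median of 0.13. Unadjusted (p under 0.05 in limma), 7 were higher and 1 lower, beside the same 7.58% and 6.55%. After adjustment 16 did not pass and 2 were higher, beside the same 1.87%. They were Ifi35, at 0.46 ± 0.078 (SD, n = 2; adjusted p = 0.0199; lost under 2 of 12 alternatives), and Xaf1, at 0.79 ± 0.16 (SD, n = 2; adjusted p = 0.00455), but another Xaf1 probe was at -0.91, so that gene has no settled direction.

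Over the wider family of 63 ligands and receptors, 36 were tested, 6 were higher, 1 was lower and 29 did not pass. Over all genes tested, 1.87% were higher and 1.81% lower. The median ratio of the 36 was 0.17, and 19 of them (52.8%) were above 0 in both pairs, beside 27.6% of all genes. The 36 include the 9 members, 8 of which were above 0 in both pairs, so they are not a separate set. Cxcl10, which passed the filter only through the labelled knockout channels, is counted here too. Besides Ackr3, Cxcl14 and Ccl11, the higher genes were Ackr4, Ackr1 and Cxcl13, and the lower gene was Ccl24. A list of atypical and chemokine-like receptors, which besides the ACKR genes held Ccrl2, Gpr182 and the chemerin receptor gene Cmklr1, had 3 of the 6: of 7 listed, 6 were tested, 3 were higher and 3 did not pass. Ackr4, which takes up CCL19, CCL21 and CCL25, had intensities of 12.02 and 12.30 in the female and male ureters labelled knockout and of 10.71 and 10.62 in the controls. At 1.50 ± 0.27 (SD, n = 2; adjusted p = 0.000938), or 2.82-fold, it had the highest ratio of the 36. Its ligands Ccl19, at 0.15, and Ccl25, at -0.027, did not pass. Ackr1, a receptor of many inflammatory chemokines on red cells and venules, was at 11.22 and 11.23 against 10.60 and 10.49, a ratio of 0.68 ± 0.086 (SD, n = 2; adjusted p = 0.00507). Ackr2 was at 0.012, Gpr182 at -0.066 and Ccrl2 at -0.21, and these did not pass, with Ackr2 on either side of 0 depending on the processing.

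Of 18 signalling receptors, 7 were tested, 0 were called and 11 were too dim. Their median was 0.025, and the highest ratio was that of Ccr2, given above. At an unadjusted p under 0.05 in limma, 1 of the 7 was higher and 0 were lower, beside 14.1% of all genes in either direction. Of 17 CXC, CX3C and XC ligands, 9 were tested, 2 were higher, Cxcl14 and Cxcl13, and 7 did not pass. Over all genes tested, 1.87% were higher and 1.81% lower. Cxcl13, the B-cell attractant, was at 9.46 and 9.86 in the female and male ureters labelled knockout and at 9.06 and 9.45 in the controls, so the female labelled knockout and the male control stood at nearly 1 level while the ratio within each pair was close to 0.40. Its mean was 0.40 ± 0.0050 (SD, n = 2; adjusted p = 0.0262). Of 21 CC ligands, 14 were tested, 1 was higher, 1 was lower and 12 did not pass, beside the same 1.87% and 1.81%. Ccl24, like CCL11 a ligand of CCR3, fell by 0.48 ± 0.0046 (SD, n = 2; adjusted p = 0.0137). Its intensity was 8.35 and 8.48 in the female and male ureters labelled knockout and 8.83 and 8.96 in the controls, so the 2 eotaxin genes on the array that were tested changed in opposite directions. The calls of Cxcl13 and Ccl24 were each lost under 2 of 12 alternatives, median centring and the deposited table.

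**Figure D3:**
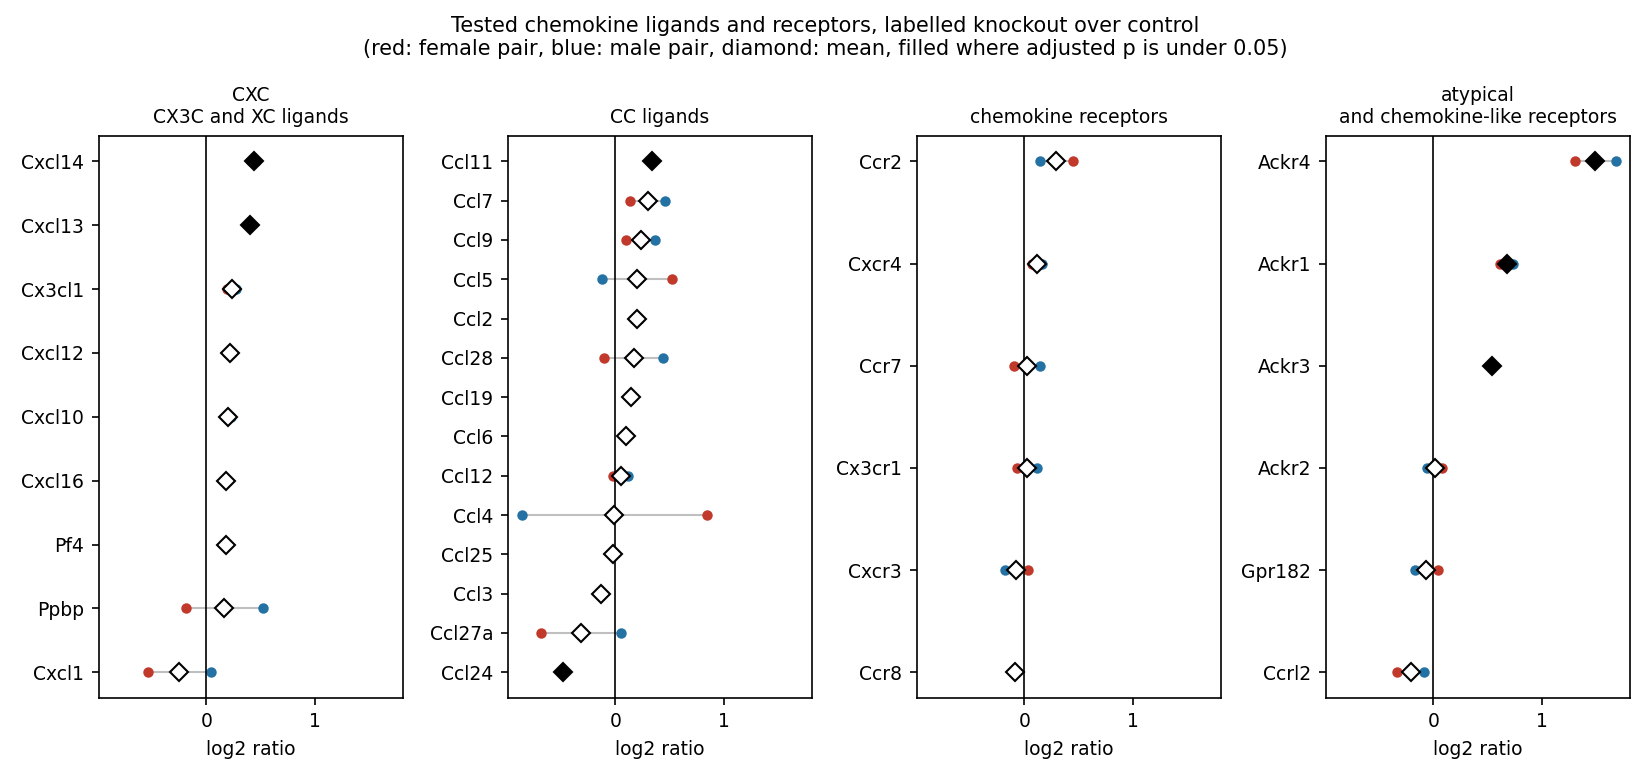
Log2 ratio of labelled knockout over control for the 36 tested ligands and receptors in 4 lists (1 uncalled signalling receptor is not drawn), with the female pair in red, the male pair in blue, and the mean as a diamond that is filled where the adjusted p is under 0.05. Ackr4 stands furthest to the right at 1.50, Ccl24 is the filled point left of 0, and the signalling receptors have 0 filled points.

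Of 32 genes that couple CXCR4 and ACKR3 to the cell or handle CXCL12, all were tested, 3 were higher and 29 did not pass, with a median of 0.013. Over all genes tested, 1.87% were higher and 1.81% lower. Sdc2, a syndecan with heparan sulphate chains of the kind that hold CXCL12, was at 0.43 ± 0.054 (SD, n = 2; adjusted p = 0.0219). Cd74, a surface receptor of MIF and the invariant chain of MHC class II, was at 0.39 ± 0.091 (SD, n = 2; adjusted p = 0.0371). Dpp4, the peptidase that trims and inactivates CXCL12, was at 0.37 ± 0.016 (SD, n = 2; adjusted p = 0.0355). These calls are near the threshold: of 12 alternatives, 2 ended that of Sdc2 (adjusted p up to 0.128) and 3 each those of Cd74 (up to 0.241) and Dpp4 (up to 0.213). The G-protein, arrestin and receptor kinase genes of the list were not among the called genes. Of 12 regulators and partners of CXCL12 in mesenchyme, 1 was higher, Vcam1, and 1 was lower, Pdgfra, beside the same 1.87% and 1.81% of all genes. The median over the 12 was 0.069. Pdgfra, a receptor of mesenchymal progenitors, fell by 0.39 ± 0.051 (SD, n = 2; adjusted p = 0.0316). The Pdgfra call was lost under 4 of 12 alternatives, with an adjusted p up to 0.562.

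Markers of the cell types a ureter can hold were read beside these values. All 14 fibroblast and mesenchyme markers were above background and tested. Of these 0 were higher and Pdgfra was lower, beside 1.87% higher and 1.81% lower over all genes tested. The summed intensity of the 14 in the ureters labelled knockout was 1.09 and 1.04 times that of the control in the female and male pair. Smooth muscle markers moved far more: 9 of 11 tested were lower, beside the same 1.81%, with a median of -2.53, and their sum was 0.33 and 0.28 times the control.

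Markers of leukocytes, which respond to chemokines, and of endothelium, which can bear atypical receptors, had medians above 0 but no called gene. Of 18 macrophage and leukocyte markers, 16 were tested and 0 were called (6 were higher at an unadjusted p under 0.05 in limma, beside 7.58% of all genes). With 14 above 0, beside 48.9% of all genes, these markers had a median of 0.13. Their summed intensity ranged from 67099 to 68949 in the controls and from 70960 to 73123 in the ureters labelled knockout, and Cd163 and Cd79a were not above background. Bright probes weigh most in this sum. The Itgam probe in it stood at 14.01 in the female control and had a mean ratio of -0.089. Other Itgam probes stood at 7.19 and 7.13 in that control, so the probes of this marker differ. Lyz2, a lysozyme of myeloid cells, was at 0.32 ± 0.00073 (SD, n = 2; adjusted p = 0.0598), and Ptprc, the pan-leukocyte gene, at 0.29 ± 0.012 (SD, n = 2; adjusted p = 0.0833). Of 14 endothelial markers, 13 were tested and 0 were called (6 were higher at an unadjusted p under 0.05, beside the same 7.58%). With 13 above 0, beside the same 48.9%, these markers had a median of 0.22. Their sum, in which the brightest probes weigh most, was 1.08 and 1.23 times the control in the female and male pair. Egfl7, which is part of this sum, had a female ratio of -0.20 and a male ratio of 0.85. Kdr, the VEGF receptor of endothelium, was at 0.30 ± 0.094 (SD, n = 2; adjusted p = 0.0933), and Egfl7 at 0.32 ± 0.75 (SD, n = 2; adjusted p = 0.677). The part of either cell type in the ratios of Ackr3, Ackr1, Ccl2, Ccl7 or Ccr2 was not tested.

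Of 13 glial and neuronal markers tested, 3 were higher and 1 was lower, beside 1.87% and 1.81% of all genes. Fabp7 was at 0.71 ± 0.023 (SD, n = 2; adjusted p = 0.00321), Prph at 0.69 ± 0.071 (SD, n = 2; adjusted p = 0.00448) and Dbh at 0.62 ± 0.32 (SD, n = 2; adjusted p = 0.0404), while Ncam1 fell by 0.61 ± 0.17 (SD, n = 2; adjusted p = 0.0127). Over the list 10 of the 13 were above 0 in both pairs, beside 27.6% of all genes, and the median was 0.17. At an unadjusted p under 0.05 in limma, 7 were higher and 1 was lower, beside 7.58% and 6.55% of all genes. The sum of intensities, in which the brightest probes weigh most, ran the other way, at 0.80 and 0.84 times the control. The call of Dbh was lost under 4 of the 12 alternatives and that of Ncam1 under 2. Of 15 urothelial markers 0 were called (2 higher and 3 lower at an unadjusted p under 0.05, beside 7.58% and 6.55% of all genes), with a median of -0.022, where Upk1b was at -0.29 and Upk3a at 0.27. Of 9 erythroid and platelet markers 0 were called (4 higher unadjusted, beside 7.58%), with a median of 0.18 and sums of 1.35 and 0.94 times the control. Alas2, an enzyme of haem synthesis in red cells, was at 0.35. Of 8 kidney markers 0 were called (1 higher and 1 lower unadjusted, beside 7.58% and 6.55%), with a median of 0.020. Six2, at -0.34 and 1.11, and Wt1, at -0.032 and 0.79 in the female and male pair, had opposite signs. The part of these cells in the members' ratios was likewise not tested.

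The direction of every member's mean was the same under each of the 12 processing alternatives that tested it (11 for Cxcl10), while the calls were not. Ackr3 was called under 11 of the 12, Cxcl14 under 10 and Ccl11 under 7. With median centring in place of loess, 0 members were called, and 242 genes in all, against 759.

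**Figure D4:**
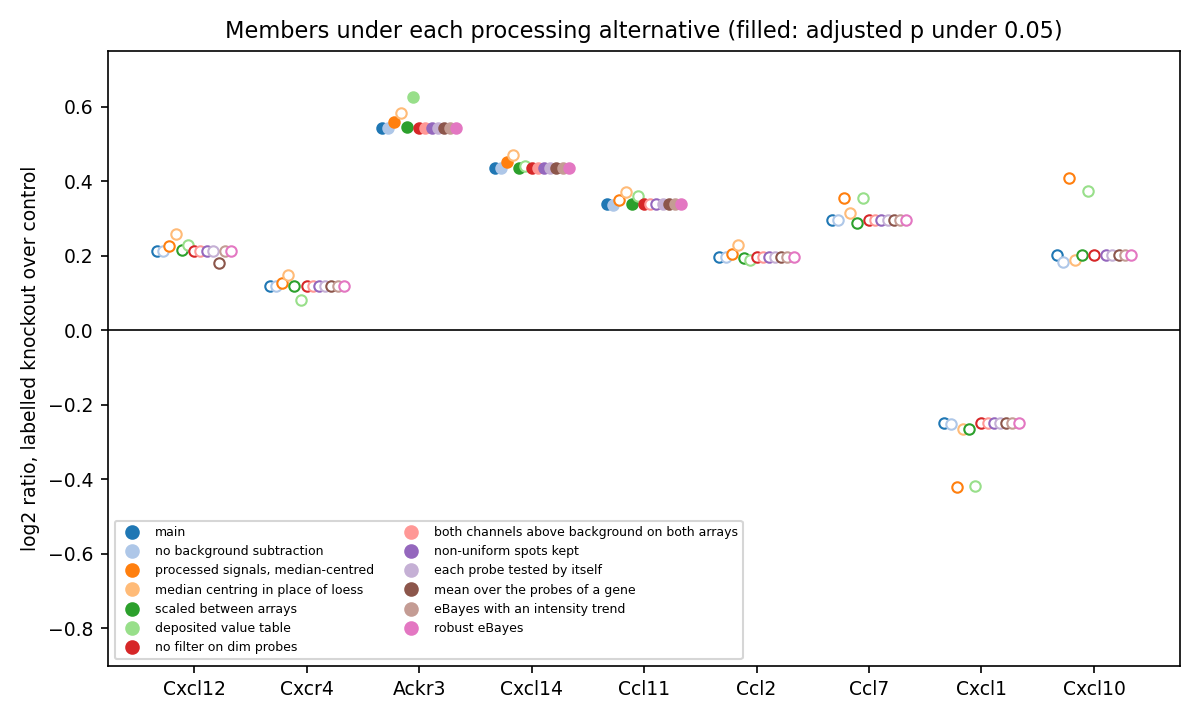
Log2 ratio of each member under the processing used for the text (main) and under each alternative, 1 colour for each, filled where the adjusted p is under 0.05. Every gene stays on its side of 0, Ackr3 is open for median centring alone, and Cxcl1 and Cxcl10 move furthest when the processed signals or the deposited table are used.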

How the data were processed

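Arrays were two-colour and scanned on an Agilent system, with Agilent Feature Extraction 10.7.3.1 named in the submitters' processing notes. Per the file headers, the deposited files hold the intensity of spots and local background in both channels, and a processed intensity after the scanner software's own background subtraction and LOWESS dye correction. A deposited value table holds a score, 1 signed fold ratio per probe and array. The steps behind it are not stated. Its log2 values correlated with the processed signals at 0.982 and 0.985 over 24806 probes above background in both channels, which set its direction. The probe of Cxcl10 was not among these. Over all 39396 probes, dim ones included, the table correlated with the processed signals at 0.576 (female) and 0.456 (male). Its scale and centring stay otherwise unknown: the median was 1 in both columns, and 33.7% and 34.1% of values were exactly 1.

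Mean signals were background-corrected with normexp (offset 50) and dye curves removed by loess, with control and filler spots at weight 0. Non-uniform spots (186 and 223) were dropped, the 4 spots of a probe averaged, and ratios turned to labelled knockout over control. A probe was kept if more than 0.5 of its spots passed the scanner's background test in 1 RNA group on both arrays. RefSeq (GRCm38.p6) accessions named 28303 of 39396 probes, and the brightest probe stood for a gene. The other 11093 probes were kept under their own accession, and each such accession was counted as a gene. limma 3.58.1 under R 4.3.3 (lmFit, eBayes) had 1 residual and 5.24 prior degrees of freedom, so the pooled spread of all genes carries the p-values. Channel levels were scaled between arrays (Aquantile). The slide and the scan were shared. The procedure was also run on simulated data with a smooth dye curve and noise drawn separately for each probe. That run does not speak to how far the results depend on the loess step or on dye effects of single probes.

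The 9 members, the gene lists and the markers were chosen with earlier results of these data known. Named genes were every member with every probe, the called genes of each list or else its 2 largest ratios, Tbx2, Tbx3 and Tbx18, and the 3 genes nearest to Cxcl12 and Ackr3. The values of 2 genes that this rule takes are not reported here. Other genes given with values, such as receptors of the members' ligands and Ccl4, were chosen after these were seen. Alternatives were other background, normalization, filter, probe and variance settings, the deposited table and each pair alone.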

Additional observations from a re-analysis of the deposited data

Results flagged for a closer look

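For 9 of the tested genes given with values, the female and the male pair had ratios of opposite sign, as did 12 of the 36 tested ligands and receptors and 9123 of all 20629 genes. These differences were not tested. Each pair is 1 array, and effects of sex and of the dyes cannot be told apart. Among the members this was Cxcl1, whose ratio was higher by 0.58 in the male than in the female pair (-0.54 and 0.040), with the female control as the sample that stood apart. Ccl12 differed by 0.13 (-0.020 and 0.11). Ccl4, a macrophage chemokine, differed by -1.71 (0.84 and -0.87), and the AlexaFluor647 channel was the brighter one on both arrays. Among receptors, Cxcr3 differed by -0.21 (0.032 and -0.18), Gpr182 by -0.21 (0.039 and -0.17) and Ackr2 by -0.14 (0.081 and -0.058). Of the markers, Egfl7 of endothelium differed by 1.06, Six2 of nephron progenitors by 1.44 and Wt1 of the kidney by 0.82.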

How the results depend on the processing

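Median centring in place of loess gave 242 called genes, 0 called members and 1 called gene of the chemokine family (Ackr4). The deposited value table gave 285, 1 (Ackr3) and 3 (Ackr1, Ackr3 and Ackr4), against 759, 3 and 7 in the text. The other 10 alternatives gave 664 to 1038 genes, 2 or 3 members and 6 or 7 of the family. Why these counts differ was not tested. The direction of each member's mean was kept under the 12 alternatives, but Cxcl10 was not tested where both channels had to be above background. Under median centring the adjusted p of Ackr3 was 0.114 and that of Ackr1 0.0503. Xaf1 turned to -0.059 as a mean over its probes. Ccl4, at -0.011 with the processing of the text, was at 0.0047 with the processed signals, 0.032 with median centring, 0.030 with scaling between arrays and 0.0059 in the deposited table, beside an SD of 1.21. Other ratios near 0 also changed sign: Cxcr3 to 0.050 in the deposited table, Ackr2 to -0.0051 with median centring and -0.013 in the deposited table, and Ccl25 to 0.0045 with median centring and 0.028 as a mean over its probes. Each pair alone gave the pair values in the text, with no test, since no residual degree of freedom was left. The fit reported is a paired one, since each array sets a labelled knockout against a control RNA of the same replicate number, and no fit with a further replicate block could be made. Signal near background limits Cxcl10 and Cxcl1, each with a control channel in which not all spots were well above it, and left 11 signalling receptors untested.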
